A study of Mus musculus with 25 samples.

Results

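Fatty acid synthesis and its immediate neighbours were followed through 10 genes. Acly, Acaca, Fasn, Elovl6, Scd1, Scd2 and Me1 act in the cytosol or endoplasmic reticulum to build, lengthen and desaturate fatty acids, and Acacb, Mlycd and Gpam act at mitochondria or on malonyl-CoA. They were taken by symbol from the deposited table of expected counts, which lists 55487 genes. All 10 passed the filter on low counts, which left 19155 genes for testing.

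AMPK, the energy-sensing kinase, phosphorylates and inhibits both acetyl-CoA carboxylases, the enzymes that make malonyl-CoA. Malonyl-CoA is the building block of new fatty acids and also blocks the carnitine shuttle that carries fatty acids into mitochondria for oxidation. AMPK also restrains the transcription factors of the SREBP family, which switch on most genes of the pathway. Phosphorylation itself cannot be read from transcript counts. Fat cells and liver are the classic sites of fatty acid synthesis, while tendon is mainly a tissue of collagen-producing fibroblasts.

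The libraries were made from whole Achilles tendons of mice aged 3 months. They comprised 6 from AMPKcKO mice (a conditional knock-out, written cKO) that ran on wheels, 6 from wild-type (WT) wheel runners, 6 from cKO mice with cage activity and 7 from WT mice with cage activity. The WT cage group held 4 females and 3 males, and every other group held 3 of each sex. The series title names loss of the α1 subunit, which is catalytic and is encoded by Prkaa1, but the labels name neither the Cre driver nor the deleted exons, and they do not say whether a library came from 1 animal. P-values therefore measure the spread between these libraries, which may be partly technical. All 25 carry the same batch number in the labels, but the column headers show 2 project prefixes, of which the rarer marks 2 libraries, cKO cage male 3 and WT cage female 4.

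Totals ran from 13193228 to 45724243 counts per library, and each of the 10 genes had at least 62 counts in every library. Counts of Cre were found in 11 of the 12 libraries labelled cKO and in 0 of the 13 labelled WT. Prkaa1, the targeted gene, had a log2 fold change of -0.36 ± 0.12 (SE) for cKO over WT over both activities (adjusted p = 0.980). The eGFP reporter exceeded 10 CPM in all 6 libraries of cKO runners, in 1 of the 6 of WT runners, in 2 of the 6 of cKO cage mice and in 0 of the 7 of WT cage mice, so carriage of eGFP largely coincided with cKO running. WT running female 2 and WT running male 3 lay far from the other libraries on the leading principal components. The tendon markers Col1a1 (1847 to 13620 CPM, counts scaled to library size) and Tnmd (15.3 to 83.5 CPM) were present in all 25 libraries. So were the skeletal muscle gene Acta1 (1097 to 14030 CPM) and the fat cell gene Adipoq (54.5 to 284 CPM).

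Per length of transcript, Scd1 was far the most abundant of the 10 in tendon. Its median over the 25 libraries was 3329 FPKM (fragments scaled to transcript length and depth), with a range of 732 to 20860 FPKM. The next 8 genes lay close together, at median levels of 42.5 FPKM for Gpam, 37.3 for Fasn, 26.3 for Acacb, 25.1 for Scd2, 21.6 for Acaca, 20.3 for Me1, 17.5 for Mlycd and 15.4 for Acly. Elovl6 was lowest, at a median of 1.26 FPKM and a range of 0.44 to 3.73 FPKM. Scd1 exceeded Gpam in 25 of 25 libraries and Acly exceeded Elovl6 in 25 of 25. No other neighbours in this order were so separated, since each stood above the next in only 10 to 18 of 25 libraries. Of the 31-base words of Scd1 transcripts, 5.18% also occurred in Scd2, and 4.63% of those of Scd2 occurred in Scd1. Whether reads of the far more abundant Scd1 were placed on Scd2 was not tested.

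None of the 10 genes passed the test (edgeR's quasi-likelihood F-test, Benjamini-Hochberg adjusted p under 0.05 over all 19155 genes) in any of the 10 comparisons of genotype, activity and sex. In the genotype comparisons few genes of any kind passed. The share of all tested genes that passed was 0% for cKO over WT in runners, 0% at cage activity and 0.00522% (1 gene) for the mean of both activities. It was 0.0418% for running over cage in cKO, 0.131% in WT and 1.41% for the mean of both genotypes. A count of 0 among 10 genes is therefore no departure from the genes at large. The libraries are of bulk tissue, so fewer cells of a type and less RNA per cell cannot be told apart in any value below.

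**Figure D1:**
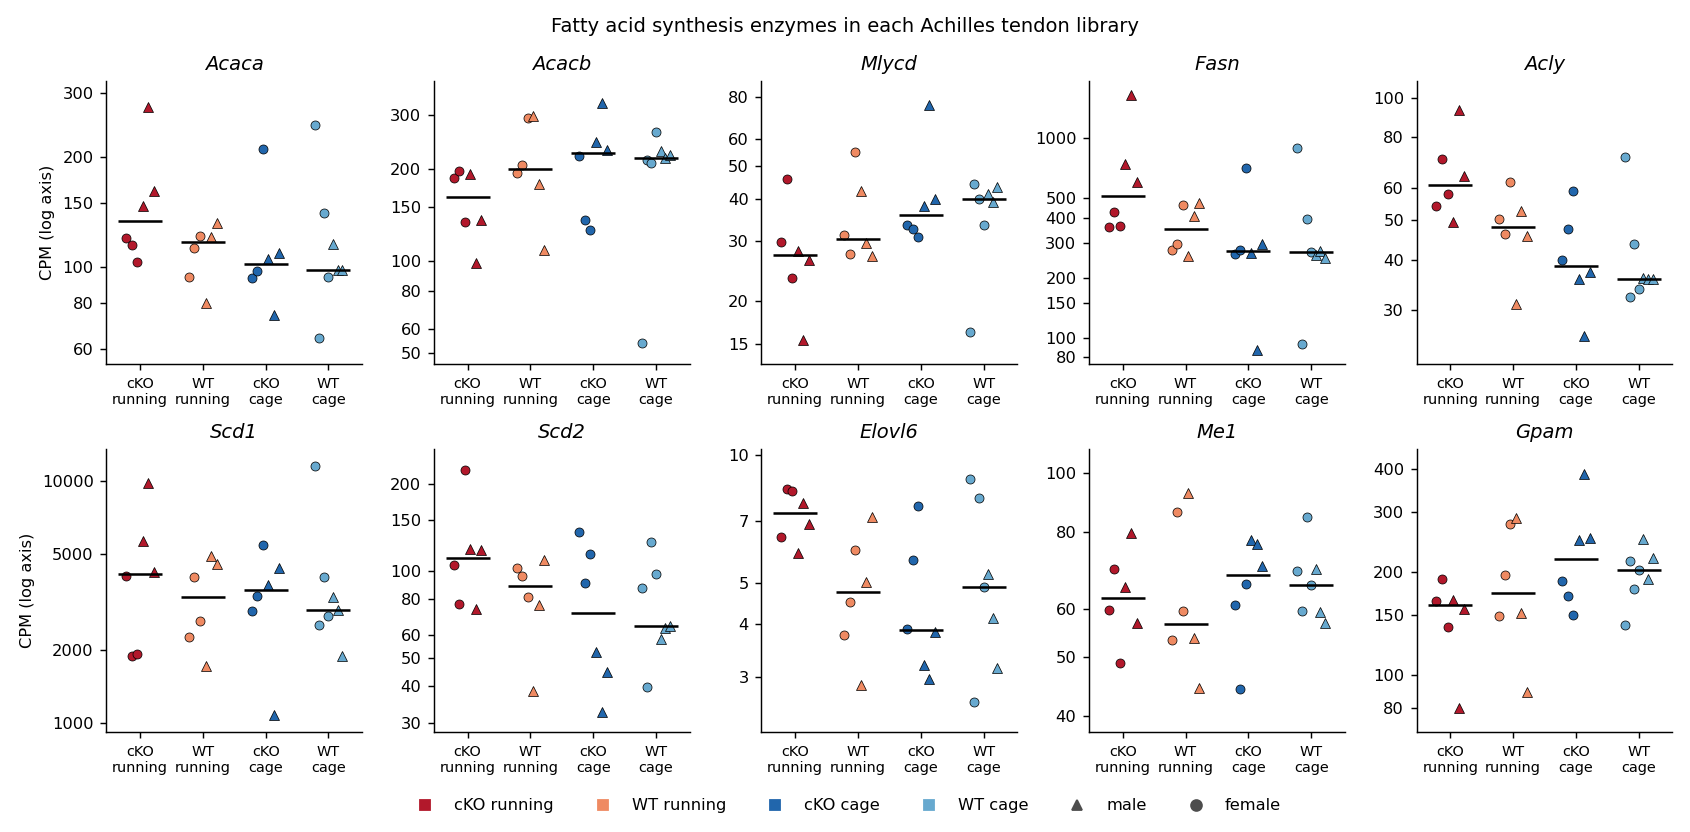
CPM of each gene in each library on a log axis, by group, with triangles for males, circles for females and a black line at the group median. The cKO running libraries lie at the upper end for Acly and Elovl6 and at the lower end for Acacb and Gpam, and every group overlaps every other for all 10 genes.

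Acly (ENSMUSG00000020917, chromosome 11, 100476353 to 100528000, minus strand of GRCm38) encodes ATP citrate lyase, which splits cytosolic citrate into the acetyl-CoA from which fatty acids are made. In runners, the lowest, median and highest libraries had 49.5, 61.1 and 93.2 CPM in cKO tendons, against 31.1, 48.2 and 62.0 CPM in WT tendons. At cage activity they had 26.0, 38.5 and 58.9 CPM in cKO and 32.5, 35.8 and 71.7 CPM in WT. Every cKO running library lay above the median of the WT runners and above that of the cKO cage group, but the groups overlapped. Over both genotypes, 11 of 12 running libraries lay above the median of the cage libraries. The log2 fold change of running over cage was 0.47 ± 0.13 (SE) for the mean of both genotypes (adjusted p = 0.0846) and 0.70 ± 0.19 in cKO (adjusted p = 0.161). In cKO over WT it was 0.46 ± 0.19 in runners (adjusted p = 0.409) and -0.01 ± 0.19 at cage activity (adjusted p = 1.00). Acly was the gene of the 10 nearest to the threshold, and its running mean passed in 5 of 19 alternative fits and in 2 of 25 fits that left out 1 library. The adjusted p was 0.0264 in DESeq2 and 0.00825 in limma-voom with quality weights, and it was 0.0136 in edgeR without WT cage female 1 and 0.0492 without WT running male 1. It was 0.0731 with a replicate block, 0.167 without the 2 libraries of the rarer prefix, and as high as 0.780 in females by themselves, and limma on log2 FPKM did not call it either.

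Acaca (ENSMUSG00000020532, chromosome 11, 84129672 to 84401651, plus strand) encodes acetyl-CoA carboxylase alpha, the cytosolic enzyme that turns acetyl-CoA into malonyl-CoA and is a direct substrate of AMPK. In runners it stood at 103, 134 and 274 CPM (lowest, median, highest) in cKO and at 80.2, 117 and 133 CPM in WT. At cage activity it stood at 74.2, 102 and 211 CPM in cKO and at 64.0, 98.3 and 244 CPM in WT. All groups overlapped, and single libraries made the upper ends: cKO running male 2, cKO cage female 3 and WT cage female 1. For cKO over WT the log2 fold change was 0.48 ± 0.28 in runners (adjusted p = 0.496) and -0.08 ± 0.27 at cage activity (adjusted p = 1.00).

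Fasn (ENSMUSG00000025153, chromosome 11, 120805846 to 120824547, minus strand) encodes fatty acid synthase, which joins malonyl-CoA units into palmitate. In runners it stood at 359, 514 and 1635 CPM in cKO, against 259, 351 and 472 CPM in WT. At cage activity it stood at 87.0, 271 and 710 CPM in cKO and at 93.2, 268 and 888 CPM in WT. All 6 cKO running libraries lay above the medians of the WT runners and of the cKO cage group, but 3 of the 6 lay within the WT running range. Fasn had the widest log2 fold changes of the 10 genes, at 0.94 ± 0.45 for cKO over WT in runners (adjusted p = 0.439) and 1.14 ± 0.47 for running over cage in cKO (adjusted p = 0.289). The same values were -0.13 ± 0.43 for cKO over WT at cage activity and 0.07 ± 0.43 for running over cage in WT. Both runner values rested in good part on 1 library, and without cKO running male 2 they were 0.47 (adjusted p = 0.885) and 0.70 (adjusted p = 0.706). Without the 2 WT runners that lay apart, cKO over WT was 1.00 for Fasn, 0.44 for Acly and 0.73 for Elovl6, and with eGFP as a covariate it was 1.03, 0.42 and 0.70 for the same genes (adjusted p = 1.00 for each of the last 3).

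Elovl6 (ENSMUSG00000041220, chromosome 3, 129532355 to 129638495, plus strand) encodes the elongase that lengthens palmitate to stearate. Its 6 cKO running libraries ran from 5.89 to 8.32 CPM with a median of 7.30 CPM, against 2.87 to 7.14 CPM with a median of 4.77 CPM in WT runners. At cage activity it ran from 2.97 to 7.60 CPM (median 3.86 CPM) in cKO and from 2.62 to 8.76 CPM (median 4.89 CPM) in WT. The cKO running libraries were tightly grouped and all lay above the WT running median, with 3 of the 6 above every WT runner. For cKO over WT the log2 fold change of Elovl6 was 0.56 ± 0.26 in runners (adjusted p = 0.431), and that of running over cage in cKO was 0.71 ± 0.26 (adjusted p = 0.246). At 62 to 495 counts per library, Elovl6 is the gene of the 10 with the least depth behind it.

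Scd1 (ENSMUSG00000037071, chromosome 19, 44394455 to 44407879, minus strand) and Scd2 (ENSMUSG00000025203, chromosome 19, 44293674 to 44306864, plus strand) encode stearoyl-CoA desaturases, which put a double bond into saturated fatty acids. Scd1 stood at 1896, 4141 and 9844 CPM (lowest, median, highest) in cKO runners and at 1725, 3322 and 4931 CPM in WT runners. At cage activity it stood at 1076, 3553 and 5445 CPM in cKO and at 1896, 2921 and 11562 CPM in WT. The spread within each group was wider than any difference between medians. For cKO over WT the log2 fold change was 0.45 ± 0.45 in runners and -0.26 ± 0.43 at cage activity (adjusted p = 0.681 and 1.00). Scd2 stood at 74.1, 111 and 224 CPM in cKO runners, at 38.7, 88.9 and 109 CPM in WT runners, at 32.7, 71.9 and 136 CPM in cKO cage mice and at 39.7, 64.8 and 126 CPM in WT cage mice. Its groups overlapped as well, and 11 of 12 running libraries lay above the cage median. The log2 fold change of Scd2 for running over cage was 0.71 ± 0.28 in cKO (adjusted p = 0.278) and 0.20 ± 0.27 in WT (adjusted p = 0.870).

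Me1 (ENSMUSG00000032418, chromosome 9, 86581371 to 86695953, minus strand) encodes cytosolic malic enzyme, a source of the NADPH that fatty acid synthase consumes. Its highest and lowest libraries lay closer together, as a ratio, than those of the other 9 genes. It stood at 48.9, 62.3 and 79.8 CPM in cKO runners and at 44.6, 56.6 and 92.7 CPM in WT runners. In cage mice it stood at 44.3, 68.2 and 77.7 CPM in cKO and at 56.8, 65.6 and 84.7 CPM in WT. Its log2 fold changes were -0.04 ± 0.17 for cKO over WT in runners and -0.06 ± 0.17 for running over cage in cKO, with 95% intervals of -0.37 to 0.29 and -0.38 to 0.27.

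Acacb, Mlycd and Gpam lay on the other side of 0. Acacb (ENSMUSG00000042010, chromosome 5, 114146535 to 114250761, plus strand) encodes acetyl-CoA carboxylase beta, the mitochondrial form whose malonyl-CoA blocks the carnitine shuttle. It stood at 98.6, 162 and 197 CPM in cKO runners and at 109, 200 and 299 CPM in WT runners. In cage mice it stood at 126, 225 and 328 CPM in cKO and at 54.2, 216 and 265 CPM in WT. All 6 cKO running libraries lay below the median of the WT runners, and 1 lay below every WT runner. For cKO over WT the log2 fold change was -0.43 ± 0.29 in runners (adjusted p = 0.544) and 0.07 ± 0.28 at cage activity (adjusted p = 1.00).

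Mlycd (ENSMUSG00000074064, chromosome 8, 119394878 to 119411102, plus strand) encodes malonyl-CoA decarboxylase, which removes malonyl-CoA. It stood at 15.3, 27.3 and 45.8 CPM in cKO runners and at 27.2, 30.5 and 55.1 CPM in WT runners. In cage mice it stood at 30.8, 35.9 and 75.5 CPM in cKO and at 16.2, 39.9 and 44.2 CPM in WT. In cKO, 5 of 6 running libraries lay below every cage library, and the log2 fold change of running over cage was -0.56 ± 0.26 (adjusted p = 0.352).

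Gpam (ENSMUSG00000024978, chromosome 19, 55067268 to 55127238, minus strand) encodes the mitochondrial acyltransferase that takes the opening step of triglyceride assembly. It stood at 80.3, 161 and 191 CPM in cKO runners and at 89.2, 174 and 288 CPM in WT runners. In cage mice it stood at 150.5, 218 and 388 CPM in cKO and at 141, 202 and 249.5 CPM in WT. All 6 cKO running libraries lay below the cKO cage median, and the log2 fold change of running over cage in cKO was -0.61 ± 0.25 (adjusted p = 0.288). In WT it was -0.06 ± 0.24 (adjusted p = 0.968).

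**Figure D2:**
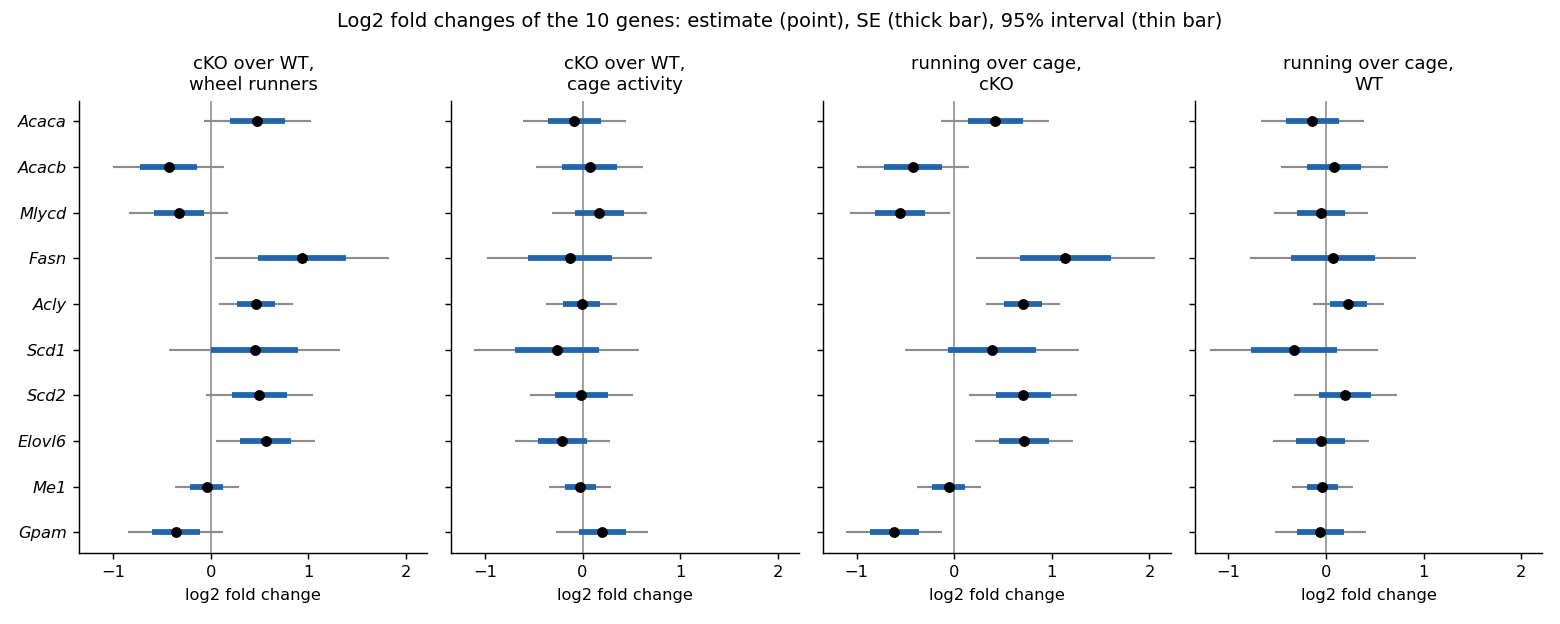
Log2 fold changes of the 10 genes in 4 comparisons, with the SE as a thick bar and the 95% interval as a thin bar. In the panels that involve cKO runners, Fasn, Acly, Scd2 and Elovl6 lie right of 0 and Acacb, Mlycd and Gpam left of it. For cKO over WT in runners, only the 95% intervals of Fasn, Acly and Elovl6 exclude 0. For running over cage in cKO, only those of Fasn, Acly, Scd2, Elovl6, Mlycd and Gpam do. All 95% intervals of the other 2 panels span 0, and no interval is adjusted for the number of genes tested.

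The 10 genes thus lay in opposite directions in cKO runners, but their means were not alike in both sexes. In cKO males, mean CPM in runners against cage mice was 992 against 216 for Fasn and 142.5 against 267 for Acacb. For Gpam it was 134 against 296. In cKO females, Fasn had 383 against 417 (medians 363 against 277), Acacb 173 against 161 and Gpam 165 against 170. Acly, Elovl6 and Scd2 had higher means in cKO runners of both sexes. For Scd2 in cKO females, though, the medians were 105 CPM in runners against 115 CPM in cage mice. Each mean is of 3 libraries. The log2 fold change of running over cage in cKO mice was positive for 6 genes and negative for 4, with a median of 0.40 against 0.03 over all genes. An unadjusted p under 0.05 was reached by 6 of the 10 (Acly, Elovl6, Scd2, Gpam, Fasn and Mlycd), against 13.6% of all tested genes. For cKO over WT in runners it was reached by 3 (Acly, Elovl6 and Fasn), against 11.3%, at cage activity by 0, and for the running mean by 2 (Acly and Scd2), against 14.9%. These comparisons of runners share the cKO running libraries, and the 10 genes vary together across libraries, so neither count is one of independent genes. For running over cage in WT, all 10 values lay between -0.33 and 0.23, and no unadjusted p was under 0.05. The genotype-by-running interaction, which tests the difference between the 2 running effects, was called for 0% of all genes. Its unadjusted p was under 0.05 for 1 of the 10, Elovl6 (log2 value 0.77 ± 0.36, adjusted p = 0.672), against 7.19% of all genes.

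The split followed 2 sets of genes that varied oppositely across the 25 libraries. Spearman's rho of log2 CPM was 0.90 between Fasn and Acaca, 0.87 between Fasn and Acly and 0.83 between Fasn and Elovl6. It was 0.94 between Acacb and Gpam and 0.85 between Mlycd and Gpam. Between the sets it was negative, at -0.74 for Fasn with Acacb. These are descriptions over libraries that share the same scaling and hold different mixtures of cells, and no test was made. With the group and sex means removed from each gene, rho was 0.92 for Fasn with Acaca and 0.84 for Acacb with Gpam, so both pairs also varied together within groups.

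**Figure D3:**
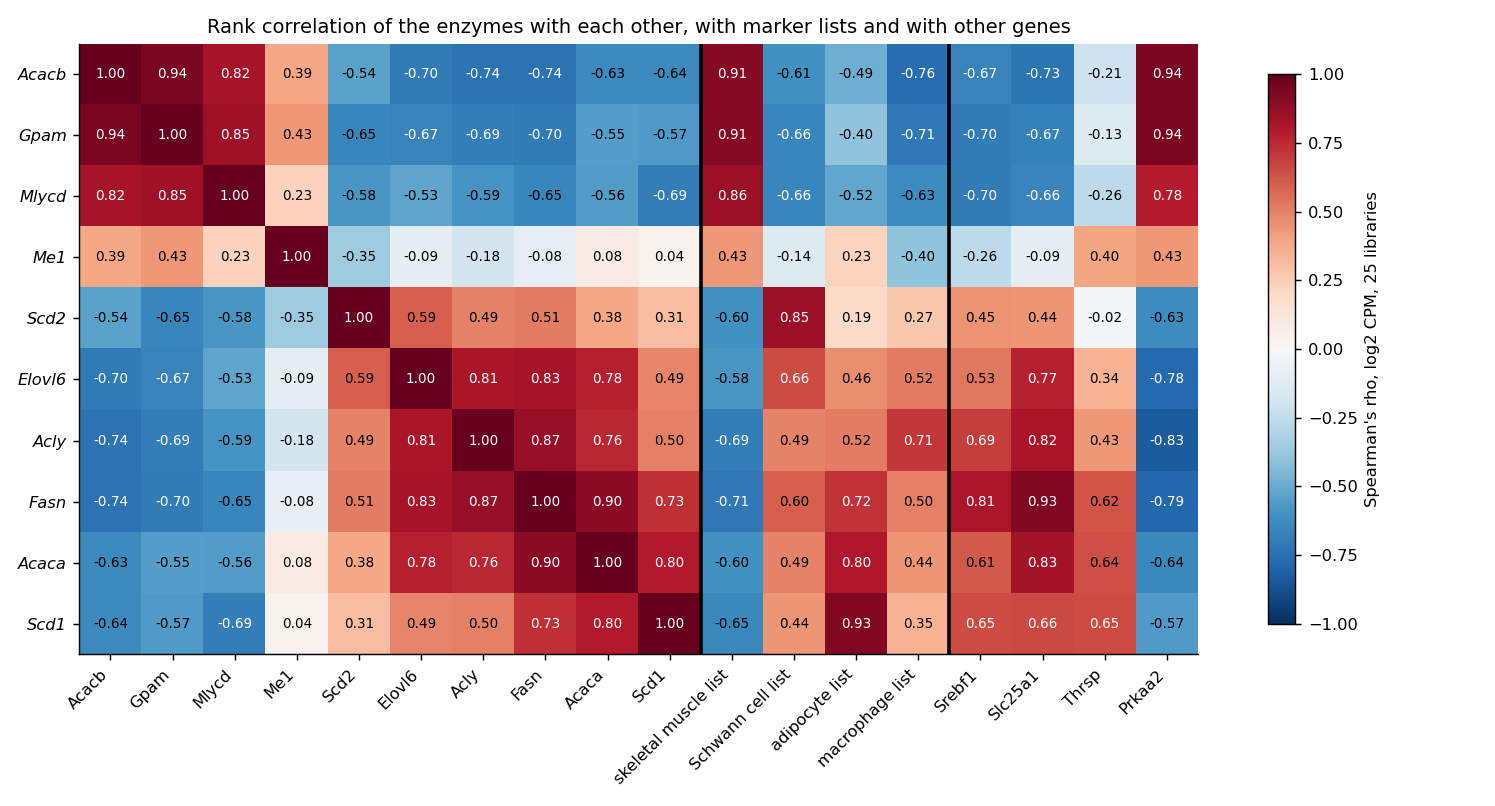
Spearman's rho of log2 CPM over 25 libraries between the 10 genes, with the mean of 4 marker lists and with 4 other genes, from -1 (blue) to 1 (red). Acacb, Gpam and Mlycd form a red block with the skeletal muscle list, and Elovl6, Acly, Fasn and Acaca form another with Slc25a1. Scd1 joins that block unevenly, at 0.73 with Fasn and 0.50 with Acly.

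Marker genes of other cell types in a whole tendon moved with each set. Acacb, Gpam and Mlycd followed the mean log2 CPM of 35 skeletal muscle genes, at rho of 0.91, 0.91 and 0.86. The tested genes most like Acacb were Atp2a1 (0.98), the calcium pump of fast muscle and itself on the list, Scn4a (0.98), the sodium channel of muscle, and Wnk2 (0.96). For Gpam they were Tnnt3 (0.96), a troponin of fast muscle, Sdha (0.95) and Atp2a1 (0.95), and for Mlycd they were Rab28 (0.94), Ptp4a3 (0.91) and Plpp7 (0.91). The CPM of the muscle list were also summed in each library and written as a percentage. Because CPM are scaled by TMM, this percentage is not the exact share of a library's counts. Its median was 9.36% (2.98 to 13.6%) in cKO runners and 16.6% (7.98 to 28.1%) in WT runners. In cage mice the median was 17.1% (7.22 to 22.9%) in cKO and 17.0% (3.56 to 22.5%) in WT.

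Scd1 followed the adipocyte list (19 tested genes) at rho of 0.93, and Acaca and Fasn did so at 0.80 and 0.72. The genes most like Scd1 were Serpina3c (0.95), Fabp4 (0.94), the fatty acid carrier of fat cells, and Plin1 (0.94), the coat protein of their lipid droplets. Those most like Acaca were Cebpa (0.87), a transcription factor of fat cells, Sfxn1 (0.87) and Pygl (0.86). The adipocyte list, which includes Plin1 at 80.8 to 566 CPM over all libraries, had a mean log2 CPM of 5.65 ± 0.65 (SD) in cKO runners and 5.38 ± 0.38 in WT runners. In cage mice it was 5.48 ± 0.44 in cKO and 5.54 ± 0.55 in WT. Libraries with the highest Scd1 were also those with the highest index, WT cage female 1 at 6.61 and cKO running male 2 at 6.68. The same libraries were highest on a sebaceous and epidermal list (6 tested genes), at 2.47 and 3.42. Across all libraries Scd1 followed that list at rho of 0.40, and the part of that list in the values of Scd1 was not tested.

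Scd2 followed the Schwann cell and myelin list (18 genes) at rho of 0.85, and the gene most like it was Pmp22 (0.92), a protein of compact myelin that is itself on that list. The index of this list was 3.00 ± 1.34 in cKO runners, 1.58 ± 0.98 in WT runners, 1.19 ± 1.63 in cKO cage mice and 1.61 ± 1.502 in WT cage mice. The library with the highest Scd2, cKO running female 4 at 224 CPM, had the highest Schwann index, 4.996. With that index as a covariate, the log2 fold change of Scd2 for running over cage in cKO was 0.12, against 0.71 without it.

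**Figure D4:**
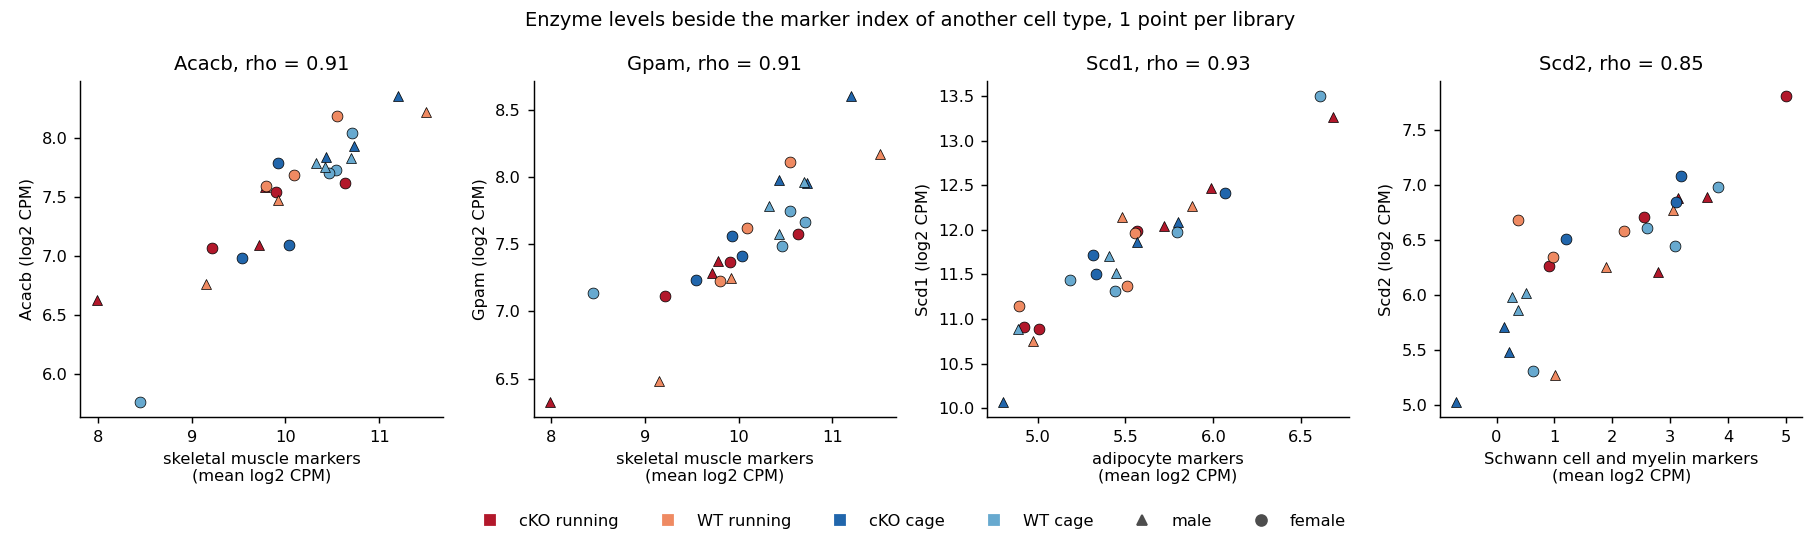
Log2 CPM of Acacb, Gpam, Scd1 and Scd2 in each library against the mean log2 CPM of the marker list named on the x axis, coloured by group. Each cloud rises from left to right, with libraries of all 4 groups along it.

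The 3 genes most like each of Fasn, Acly, Elovl6 and Me1 were outside these lists, as were those most like Mlycd. The gene most like Fasn was Slc25a1 (0.93), the carrier that exports citrate from mitochondria for Acly to split, followed by Tkt (0.89) and Rbp4 (0.87). Those most like Acly were Ftl1 (0.89), Irak3 (0.87) and Efhd2 (0.87). The rho of Acly was 0.71 with the macrophage list, -0.69 with the muscle list and 0.52 with the adipocyte list. With group and sex means removed, it was 0.56, -0.57 and 0.72 with the same lists. The macrophage index was 4.74 ± 0.43 (SD) in cKO runners, 4.47 ± 0.45 in WT runners, 4.19 ± 0.65 in cKO cage mice and 4.04 ± 0.52 in WT cage mice. For the running mean, 11 of its 12 genes had positive log2 fold changes, with a median of 0.52 beside the 0.47 of Acly, and its part in the value of Acly was not tested. Those most like Elovl6 were Hba-a2 (0.86), Tkt (0.84) and Tfpi (0.82), and those most like Me1 were Gpt2 (0.80), Svip (0.79) and Hibch (0.76). Srebf1, the transcription factor that switches on fatty acid synthesis genes, followed Fasn at 0.81 and Acly at 0.69.

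None of the 12 differences between groups in the adipocyte, Schwann and muscle indexes passed an exact permutation test of the libraries (smallest adjusted p = 0.403 over the 12, two-sided). The widest were the Schwann index for running over cage in cKO (3.00 against 1.19, exact p = 0.0671) and for cKO over WT in runners (3.00 against 1.58, exact p = 0.0628), and the muscle index for running over cage in cKO (9.54 against 10.31, exact p = 0.106). With the muscle index as a covariate, the log2 fold change of running over cage in cKO was 0.10 for Acacb, -0.15 for Mlycd and -0.23 for Gpam. It was 0.54 for Fasn, 0.44 for Acly and 0.49 for Elovl6 in the same fit, against 1.14, 0.70 and 0.71 without the covariate. With the adipocyte index as a covariate, the running mean of Acly (0.47, adjusted p = 0.00537) and of Fasn (0.66, adjusted p = 0.0446) passed the test. With the muscle index Acly passed (0.34, adjusted p = 0.0432) and Fasn did not (0.38, adjusted p = 0.431). With the Schwann index neither passed (0.41 and 0.39, adjusted p = 0.198 and 0.648), nor did either with eGFP or mitochondrial rRNA as the covariate.

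Sequence upstream of the genes is shown for 1 pair from each set, because their transcripts varied together across libraries, and the pairs were chosen after those values were seen. The windows are RefSeq promoters of GRCm38.p6, 250 bases before to 50 after an annotated start, 5′ to 3′ on the gene's strand, and capitals mark CCAAT or its reverse complement ATTGG, the letters bound by the factor NF-Y.
Fasn, chr11:120824498-120824797, minus strand: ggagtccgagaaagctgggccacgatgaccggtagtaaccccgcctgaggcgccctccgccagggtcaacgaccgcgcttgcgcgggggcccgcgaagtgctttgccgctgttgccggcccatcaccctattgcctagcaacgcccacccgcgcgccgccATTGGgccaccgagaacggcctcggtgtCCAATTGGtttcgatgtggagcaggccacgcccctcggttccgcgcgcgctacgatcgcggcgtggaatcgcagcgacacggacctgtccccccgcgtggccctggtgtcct
Acly, chr11:100527951-100528250, minus strand: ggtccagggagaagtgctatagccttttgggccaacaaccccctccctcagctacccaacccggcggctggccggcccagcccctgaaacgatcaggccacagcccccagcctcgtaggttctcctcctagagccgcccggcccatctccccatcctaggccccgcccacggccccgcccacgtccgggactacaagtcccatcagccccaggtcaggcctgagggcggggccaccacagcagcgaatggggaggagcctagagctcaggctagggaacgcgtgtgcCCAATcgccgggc
Acacb, chr5:114165268-114165567, plus strand: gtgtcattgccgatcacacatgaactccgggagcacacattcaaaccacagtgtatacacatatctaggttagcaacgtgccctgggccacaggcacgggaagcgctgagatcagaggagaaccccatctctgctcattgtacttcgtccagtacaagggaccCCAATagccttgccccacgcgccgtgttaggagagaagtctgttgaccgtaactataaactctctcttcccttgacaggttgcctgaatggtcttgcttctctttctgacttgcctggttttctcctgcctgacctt
Gpam, chr19:55127189-55127488, minus strand: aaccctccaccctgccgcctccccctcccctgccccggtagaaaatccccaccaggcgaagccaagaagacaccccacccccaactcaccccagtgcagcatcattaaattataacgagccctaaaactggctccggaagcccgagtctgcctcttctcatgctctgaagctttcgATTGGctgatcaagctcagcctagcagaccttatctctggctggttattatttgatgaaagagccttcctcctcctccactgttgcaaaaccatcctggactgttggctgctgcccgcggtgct
The Acacb window lies at an annotated start inside the gene, and the others at its 5′ end. Fasn held 3 copies, at bases -90 to -86, -62 to -58 and -59 to -55 from the start, where the last 2 overlap by 2 bases. Acacb held 1 at -87 to -83 and Gpam 1 at -74 to -70, while that of Acly lay after the start, at 38 to 42. The letters were thus present in windows of both sets, and 37.4% of 32544 promoter windows held them. Of the 8 genes with a RefSeq window, Mlycd (3 copies) and the alternative window of Me1 (1 copy) also held CCAAT, and those of Acaca and Elovl6 did not. Neither TCACNCCAC, the core of a sterol response element (1.24% of windows), nor CACGTG (7.17% of windows), both sought on either strand, occurred in any window of the 8 genes. The Acaca window, like that of Acacb, lies inside the gene. Variant spellings and sequence outside the windows were not searched, so the absence does not show that the genes lack such elements. CAGCTG, an E-box of muscle genes held by 16.4% of windows, occurred in Mlycd and in the alternative window of Gpam.

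The genes around the pathway gave a similar picture for genotype. In cKO over WT, none passed among 19 lipogenic regulators, 16 genes of citrate, acetyl-CoA and NADPH supply, 18 other elongases and desaturases, 18 genes of triglyceride assembly, 15 genes of fatty acid entry and carnitine transfer, and 12 AMPK subunits and upstream kinases, in runners, at cage activity or over both. In runners the smallest p among them were those of Fads6 (log2 fold change -0.57 ± 0.18), a putative desaturase, Fads2 (0.58 ± 0.20), which desaturates polyunsaturated fatty acids, and Cpt1a (0.44 ± 0.15), the widely expressed enzyme of the carnitine shuttle. The adjusted p-values of these genes were 0.385, 0.387 and 0.387. Cpt1b, the muscle form of that enzyme, had -0.43 ± 0.31 (adjusted p = 0.573), and Srebf1 had 0.23 ± 0.18 (adjusted p = 0.590). Mlxipl, the carbohydrate-response factor of lipogenesis, had -0.23 ± 0.15 (adjusted p = 0.525), and Prkaa2, the α2 subunit of AMPK, -0.58 ± 0.33 (adjusted p = 0.482).

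Some of these neighbours differed with running. For the mean of both genotypes, 2 of 19 lipogenic regulators were higher in runners, beside 116 higher and 155 lower of all 19155 genes (1.41% called). Mid1ip1, whose protein makes acetyl-CoA carboxylase polymerise and become active, had means of 24.1 and 28.8 CPM in cKO and WT runners, against 20.2 and 17.2 CPM in cKO and WT cage mice (log2 fold change 0.50 ± 0.11, adjusted p = 0.0169). In WT by itself, where 0.131% of all genes passed, it was 0.75 ± 0.15 (adjusted p = 0.0345). It passed there in 14 of the 25 fits that left out 1 library. Its lowest WT runner at 23.8 CPM lay above the highest WT cage library at 21.8 CPM. The share of all genes separated in this way was not counted. Srebf2, the SREBP factor of sterol synthesis, had 56.4 and 44.9 CPM in cKO and WT runners, against 38.2 and 36.5 CPM in cKO and WT cage mice (0.45 ± 0.09, adjusted p = 0.00650). Srebf1 had 0.31 ± 0.12 (adjusted p = 0.226) and Mlxipl had -0.10 ± 0.10 (adjusted p = 0.684).

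On the side of fatty acid entry, 3 of 15 genes were lower in runners and 0 higher, beside the same 1.41% of all genes called, 155 of them lower. Acot2, a mitochondrial thioesterase that frees fatty acids from CoA, had 10.9 and 11.1 CPM in cKO and WT runners, against 22.3 and 19.8 CPM in cKO and WT cage mice (log2 fold change -0.93 ± 0.16, adjusted p = 0.00328). Lpl, the lipase that frees fatty acids from lipoproteins, had -0.51 ± 0.13 (adjusted p = 0.0431), and Cd36, a fatty acid receptor at the cell surface, had -0.46 ± 0.11 (adjusted p = 0.0404). Of 16 genes of citrate, acetyl-CoA and NADPH supply, 2 were lower against that background, both mitochondrial: Acat1 (-0.52 ± 0.12, adjusted p = 0.0288) and Acss1 (-0.63 ± 0.16, adjusted p = 0.0498), which handle acetyl-CoA. Mid1ip1, Srebf2 and Acot2 passed for the running mean in all 25 fits that left out 1 library, whereas Acat1 passed in 21, Cd36 in 9, Lpl in 7 and Acss1 in 3. With eGFP as a covariate none of these 7 passed, the smallest adjusted p being 0.136 for Acot2 (log2 fold change -0.79). None passed among 18 other elongases and desaturases, 18 genes of triglyceride assembly and 12 AMPK genes.

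Sex was compared over all groups. For male over female, 0 of the 10 passed, against 0.616% of all genes, and Scd2 was nearest, with 71.1 ± 29.9 CPM in 12 male and 106 ± 42.8 CPM in 13 female libraries (SD) and a log2 fold change of -0.64 ± 0.20 (adjusted p = 0.190). It was the only gene of the 10 with an unadjusted p under 0.05, against 10.1% of all genes. The Schwann cell and myelin list, which Scd2 followed across libraries, had negative values in 18 of 18 genes for male over female (median log2 fold change -1.14), and its part in the value of Scd2 was not tested. The sex-by-genotype interaction was called for 0% of all genes and gave an unadjusted p under 0.05 for 0 of the 10.

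The sex-by-running interaction asks whether running went with another change in males than in females. It was called for 0% of all genes, and 5 of the 10 had an unadjusted p under 0.05, against 12.2% of all genes. Fasn stood at 259, 537 and 1635 CPM (lowest, median, highest) in male runners and at 87.0, 264 and 297 CPM in male cage mice, but at 277, 361 and 462 CPM in female runners and at 93.2, 277 and 888 CPM in female cage mice. Among males, 5 of 6 running libraries thus lay above every cage library, while the female running range lay within the female cage range. The interaction was 1.56 ± 0.55 for Fasn (adjusted p = 0.370) and 1.48 ± 0.56 for Scd1 (adjusted p = 0.370) on the log2 scale. It was 0.83 ± 0.36 for Acaca, -0.84 ± 0.33 for Mlycd and -0.80 ± 0.32 for Gpam (adjusted p = 0.385, 0.375 and 0.378). Fitted in males by themselves, the running mean of Fasn was 1.37 (adjusted p = 0.0711), and in females -0.19 (adjusted p = 0.950).

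**Figure D5:**
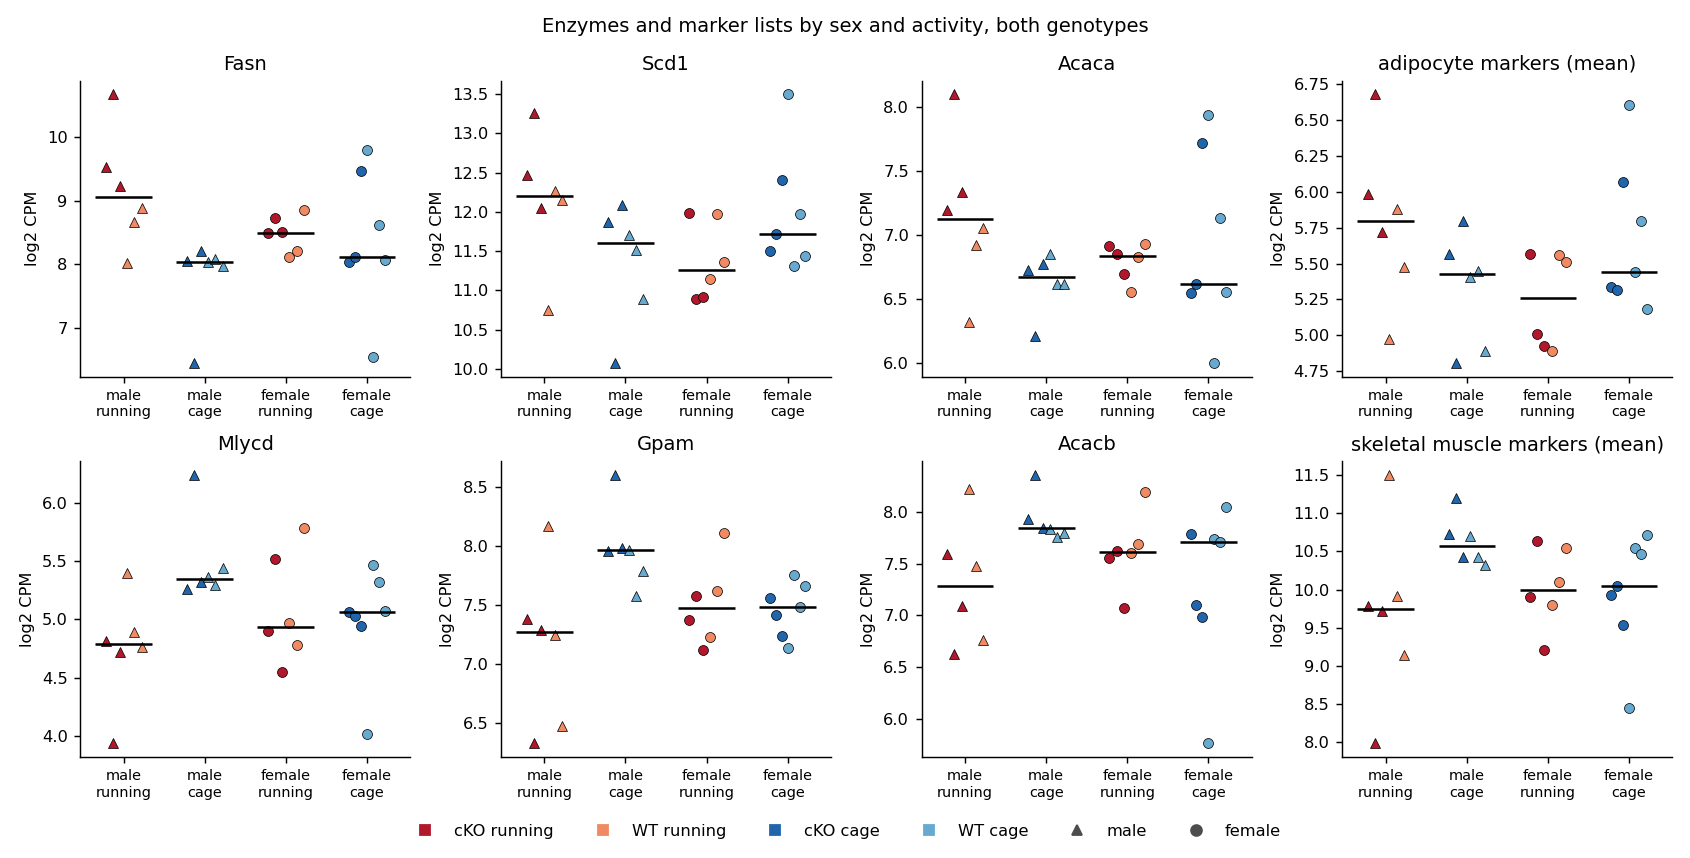
Log2 CPM of 6 genes and the mean log2 CPM of the adipocyte and muscle lists by sex and activity, coloured by genotype and activity, with black lines at the medians. Fasn, Scd1 and Acaca lie higher in male runners than in male cage mice as the adipocyte list does, and Mlycd, Gpam and Acacb lie lower as the muscle list does.

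Marker lists lay the same way by sex, and these index differences were not tested. The adipocyte index was 5.79 ± 0.57 (SD) in male runners against 5.32 ± 0.39 in male cage mice, and 5.24 ± 0.33 in female runners against 5.68 ± 0.51 in female cage mice. The muscle index was 9.68 ± 1.14 in male runners against 10.64 ± 0.32 in male cage mice, and 10.03 ± 0.52 in female runners against 9.95 ± 0.78 in female cage mice. The Schwann index differed most in this respect, at 2.59 ± 0.96 in male runners against 0.13 ± 0.43 in male cage mice, and 2.00 ± 1.69 in female runners against 2.51 ± 1.17 in female cage mice. The median sex-by-running value was 2.06 for the Schwann list (18 of 18 positive), 1.10 for the adipocyte list (19 of 19) and -0.96 for the muscle list (2 of 35 positive). For the sebaceous and epidermal list it was 1.21 (6 of 6 positive), and no fit used that index as a covariate. With the adipocyte index as a covariate the sex-by-running interaction was 0.16 for Fasn, 0.04 for Scd1 and -0.09 for Acaca on the log2 scale (adjusted p = 1.00 for each), and with the muscle index it was -0.31 for Mlycd and -0.36 for Gpam (adjusted p = 1.00). With the Schwann index it was 0.67 for Fasn, 0.66 for Scd1 and 0.25 for Acaca (adjusted p = 0.999 for each).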

How the data were processed

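RNA was sequenced from 25 Achilles tendon libraries. The submitters' processing notes list RSEM 1.3.3, STAR 2.7.8a, FastQC 0.11.8, cutadapt 2.3 and the GRCm38 (mm10) build, without saying what each did. Strand use and the annotation release are not given in the sources used here. The authors deposited expected counts per gene, all of which were whole numbers and needed no rounding, and a separate table of FPKM for the same libraries.

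Tests used edgeR 4.0.16 (R 4.3.3) on the deposited expected counts: filterByExpr on the 4 groups, TMM scaling, 4 group means with a sex term (8 group means for the 2 interactions with sex) and two-sided quasi-likelihood F-tests. Benjamini-Hochberg adjustment covered all 19155 tested genes in every comparison, and a gene was called under 0.05. Each SE belongs to a log2 fold change, and 95% intervals are 1.96 SE either side. CPM are scaled by TMM. The 4 entries for reporters were not tested. The FPKM values gave the levels per length and, as log2(FPKM + 1) or log2(FPKM + 0.1) in limma 3.58.1, alternatives in which fold changes of low genes are understated. Gene positions are those of GRCm38, and promoter windows those of RefSeq.

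A marker index is the mean log2 CPM of a list of marker genes, and its group differences were tested by exact permutation. Likeness was ranked by Spearman's rho among all tested genes other than the 10, marker genes included, with a mean log2 CPM of at least 1 and without predicted genes. The test was tried on simulated counts with known changes. The 10 enzymes, the other gene lists, the marker lists and the rule for the genes named were chosen with earlier results of these data known. By that rule all 10 are named, the called genes of each other list (at most 4 in a comparison) or those of smallest p, and the 3 genes most like each enzyme. Depth was 13193228 to 45724243 counts in a library. Alternatives were RLE scaling, other filters, DESeq2 1.42.0, limma-voom with quality weights, log2 FPKM, no sex term, a replicate block, covariates for muscle, adipocyte and Schwann markers, eGFP and mitochondrial rRNA, subsets of libraries, and the omission of single libraries.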

Additional observations from a re-analysis of the deposited data

Results flagged for a closer look

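In 12 of the 40 gene-by-group sets of CPM values, 1 library lay far from the rest of its group. Chance flags about 1 in 20 such sets if the values are normally distributed. The rule was applied to CPM, where a high library stands further out than on log2 CPM. The 40 sets also share libraries, so the 12 are not independent and are not read as an excess over chance. WT cage female 1 accounted for 6 of them, with high values for Acaca (244.457 CPM), Fasn (887.956), Acly (71.736) and Scd1 (11561.826) and low values for Acacb (54.235) and Mlycd (16.209). The same library had the lowest muscle index of its group, 8.45, and the highest adipocyte index, 6.61. Its sebaceous and epidermal index was also the highest of the group, at 2.47. In cKO running male 2, Acaca (273.836 CPM) and Fasn (1634.988) were high, beside a muscle index of 7.99 and an adipocyte index of 6.68. The sebaceous and epidermal index of that library was 3.42. In cKO cage female 3, the library labelled cKO without Cre counts, Acaca (210.851 CPM) and Fasn (709.756) were high, beside the highest adipocyte index (6.07) and the lowest muscle index (9.54) of its group. In cKO cage male 2, Mlycd was high at 75.502 CPM, beside a muscle index of 11.20. In cKO running female 4, Scd2 was high at 224.227 CPM, beside a Schwann index of 4.996. The part of these cell types in the values was not tested.

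Outside the main measurement, the library labelled WT running male 2 carried eGFP at 119.305 CPM, while the other 12 libraries labelled WT had at most 0.0219 CPM.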

How the results depend on the processing

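Of 100 values (10 genes in 10 comparisons), 37 kept their sign in every alternative fit that could be made (16 to 20 by comparison) and in all 25 fits that left out 1 library. In place of 0 enzymes, the fit with no filter on low counts called 1 (Fasn) for cKO over WT in runners, 3 (Acly, Fasn and Scd2) for running over cage in cKO and for the running mean, 1 (Scd2) for male over female and 6 (Acaca, Acacb, Fasn, Gpam, Mlycd and Scd1) for the sex-by-running interaction. DESeq2 and limma-voom each called 1 (Acly) for running in cKO and 1 (Acly) for the running mean. For that mean the muscle covariate called 1 (Acly) and the adipocyte covariate 2 (Acly and Fasn). Leaving out single libraries gave 0 to 1 called enzymes for the running mean (1 without WT running male 1 or WT cage female 1) and 0 in the other 9 comparisons. Over all genes, the running mean called 271 genes, but 715 with no filter, 632 in DESeq2, 912 in limma-voom, 155 and 147 on log2(FPKM + 1) and log2(FPKM + 0.1), 525, 498 and 138 with the muscle, adipocyte and Schwann covariates, 61 with mitochondrial rRNA, 11 with eGFP, 127 without the 2 libraries of another project prefix, 135 without libraries whose reporters go against their group, 8 in females and 102 in males. Leaving out 1 library gave 0.651% of tested genes (without WT running male 2) to 3.0% (without WT cage female 1), against 1.41%. With no filter, in DESeq2 and in limma-voom, running in cKO called 574, 215 and 384 genes against 8, running in WT 197, 161 and 90 against 25 (316 with the muscle covariate), male over female 445, 251 and 442 against 118, and sex-by-running 887, 24 and 0 against 0. For cKO over WT in runners, 282 were called with no filter, against 0, and likewise 91 for the genotype mean, 65 for genotype-by-running and 111 for sex-by-genotype, against 1, 0 and 0. The causes were not tested. On FPKM the median of all genes shifted by up to 0.278 (log2, sex-by-running), so fold changes there are relative to that shift.

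Same-numbered libraries of different groups did not deviate together (34 pairs, r from -0.168 to 0.156, 2 of them over 0.1). The labels do not say that the replicate numbers pair animals, and weak correlations cannot exclude that they do. With a replicate block 0 enzymes and 148 genes were called for the running mean, where Acly had 0.474 (adjusted p = 0.0731). Fits without all eGFP libraries could be made only at cage activity, in WT and for sex. Depth limits Elovl6 most.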
